A study of Drosophila melanogaster with 9 samples.

Results

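Chromosome 4 is the smallest autosome of Drosophila melanogaster, and the genes described here are those that the deposited annotation places on it. Of the 111 genes listed there for chromosome 4, 102 had a row in the count table. Genes with symbols of the ribosomal protein, respiratory chain, ATP synthase, vacuolar ATPase and chemoreceptor families were set aside by their symbol, which removed 3 genes (ATPsynbeta, RpS3A and ND-49) and gave 99 members of the 14865 genes counted. The choice used position and symbol and no expression value. The members comprised 76 protein-coding genes, 22 non-coding RNA genes and 1 pseudogene, between positions 879 and 1271759 of chromosome 4 on the release named BDGP6 or dm6 in the submitters' processing notes.

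The chromosome is known for an unusual chromatin state. Most of it carries the marks of heterochromatin, histone H3 methylated on lysine 9 and the protein HP1, and it recombines little, yet many of its genes are active in most tissues. The protein Pof, named for painting the fourth chromosome, binds it almost exclusively and is known to raise the output of its active genes, while the methyltransferase Eggless (egg) deposits the silencing mark there. Its genes include well known developmental regulators such as eyeless, cubitus interruptus and pangolin, as well as the precursor of the main blood lipid carrier and the giant muscle protein projectin.

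Poly(A) RNA of whole adult flies was sequenced 8 days after eclosion, from 5 control libraries and 4 libraries of a mutant for E78A, a nuclear receptor encoded by Eip78C on another chromosome. The authors' sample sheet names the control genotype w1118 and the mutant genotype E7818.37, and both were raised on food with 8% yeast and 9% sugar. The series asks how the receptor bears on lipid uptake and body lipid. The labels do not give the sex, the number of flies per library or whether each library had its own cross, and the p-values therefore reflect the spread among these libraries, part of which may be technical.

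Library totals ran from 16556267 to 19093675 counts, and 13274 genes passed the filter on low counts. Of the marker lists, the accessory gland genes summed to between 4043 and 7599 CPM (counts scaled to the library total) over the 9 libraries, and 5 female genes, yolk proteins among them, to between 11.98 and 21.79 CPM. The title and the genotype tag of 4 libraries (control replicates 4 and 5, mutant replicates 3 and 4) name opposite genotypes. Groups follow the titles, which the sample sheet matched in all 9 cases, and grouping by the tag gave 0 genes called of all tested by edgeR with Benjamini-Hochberg adjustment and 171 at an unadjusted p under 0.05.

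Coding members of chromosome 4 were long genes, and in the control flies their median level was high per length of exon. The median exon length of the 76 coding members was 4380 bases, against 1864 bases for tested coding genes on the other chromosomes, and their median span from first to last base was 10474 against 2385. In control flies the coding members had a median level of 23.1 CPM per kilobase of exon, with quartiles at 10.3 and 42.9, and the coding genes of the other chromosomes had a median of 13.4. The ratio of these medians was 1.72, and it lay between 1.65 and 1.81 in each of the 5 control libraries and in each of the 4 mutant libraries. The symbol families set aside from the members were not removed from the genes of the other chromosomes. Divided by the whole span of the gene, introns included, the ratio was 1.162. The coding genes of the X had a median of 10.4, those of 2L 14.5, of 2R 14.6, of 3L 14.1 and of 3R 13.5 CPM per kilobase. No test was made of these levels, since genes are not replicates.

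**Figure D1:**
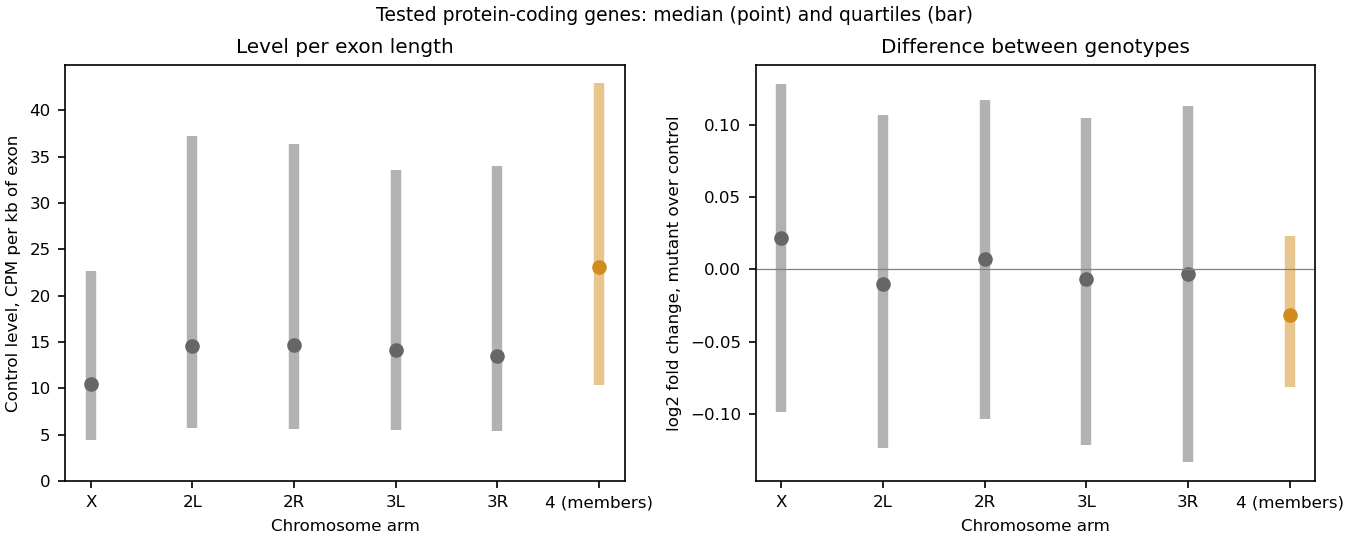
Tested protein-coding genes of each chromosome arm, with the median as a point and the quartiles as a bar. On the left is the mean control level in CPM per kilobase of exon, where the members of chromosome 4 have a median of 23.1 and the other arms lie between 10.4 and 14.6. On the right is the log2 fold change of mutant over control, where the members have a median of -0.032 and a narrower spread than the other arms.

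A few genes carried much of the members' RNA. The set-aside genes ATPsynbeta, RpS3A and ND-49, with means of 2225, 1055 and 384 CPM in controls, are outside the shares given here. The members together took 1.58% ± 0.066 of all counts in the control libraries (SD, n = 5) and 1.46% ± 0.058 in the mutant libraries (SD, n = 4). The gene apolpp alone made up 31.5% of the members' summed CPM in controls and 29.2% in mutants, and the 10 highest members 63.2% and 61.2%. Without apolpp, the members took 1.08% ± 0.045 and 1.03% ± 0.056 of all counts. Per kilobase of exon, the highest control levels were those of apolpp at 421 CPM, the calmodulin-dependent kinase CaMKI at 132, the small GTPase Arf102F at 114 and the uncharacterised CG31997 at 100.0. Of the 76 coding members, 55 lay above the median of all tested genes per kilobase and 7 in the highest 10%. That median, non-coding genes included, was 11.8 CPM per kilobase in controls, and the median of tested coding genes alone was 13.5. The coding members in the lowest 10% were 2 transcriptional regulators, the forkhead factor fd102C at 0.725 CPM per kilobase and the Ski family member fuss at 1.29. Non-coding members were low, with a median of 2.31 CPM among the 17 that were tested, pseudogene included, against 89.3 CPM for the coding members.

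**Figure D2:**
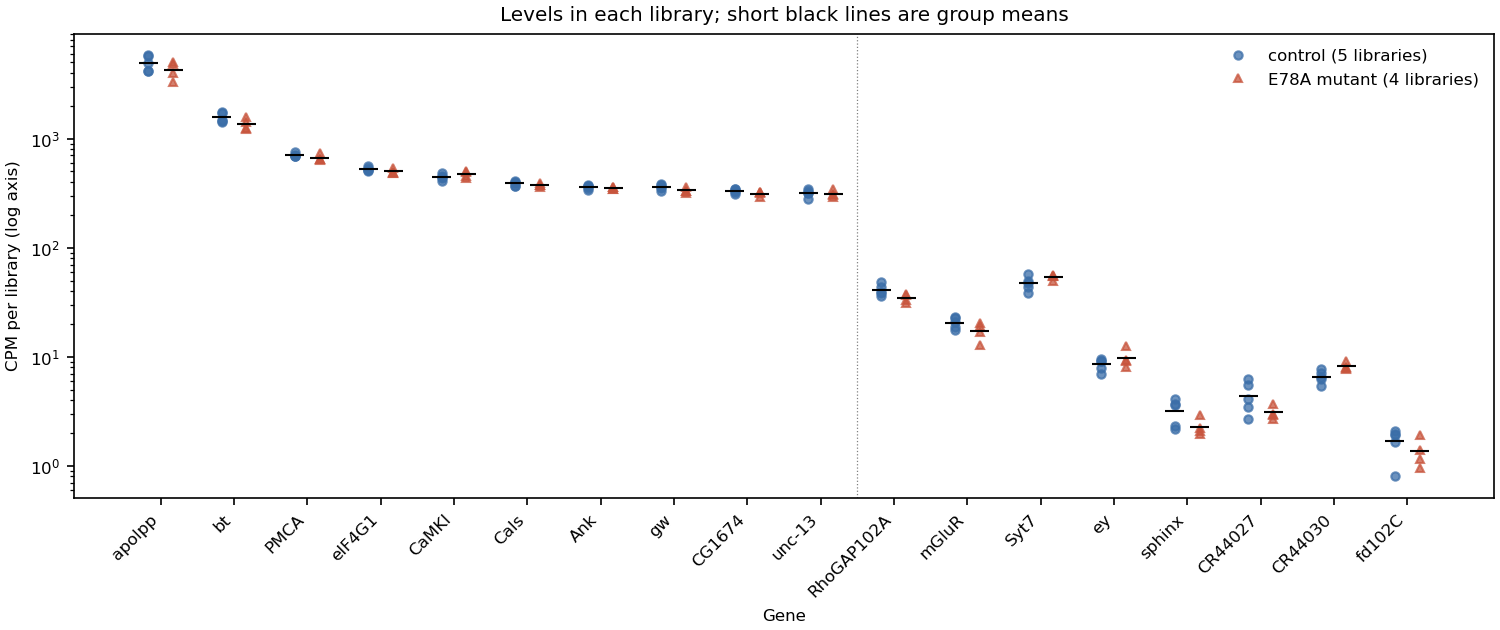
CPM in each library, on a log axis, of the 10 members with the highest mean level (left of the dotted line) and of 8 members named for a large difference (right), with control libraries as circles, mutant libraries as triangles and group means as short lines. The gene apolpp lies between 3288 and 5855 CPM, and CR44030 is the gene shown whose groups do not overlap.

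Mutant and control flies were compared for each member. By edgeR's quasi-likelihood test, 0 of the 93 tested members differed at a Benjamini-Hochberg adjusted p under 0.05, where 1.63% of all tested genes were called. At an unadjusted p under 0.05 there were 3 members, 3.23%, against 15.1% of all tested genes. The libraries of both groups did not overlap for 1 member, against 6.16% of all tested genes. By DESeq2, 0 of 99 members were called, with 4 at an unadjusted p under 0.05 and 3.34% of all genes called. Fewer cells of a type and less RNA per cell cannot be told apart in whole flies. Every other chromosome arm held called genes, from 0.541% of the tested genes of the X to 2.58% of those of 3R, and with 93 genes tested the members' count was not tested against these shares.

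The differences were small and the intervals were narrow. The median log2 fold change, mutant over control, was -0.030 over the 93 tested members and -0.0024 over all tested genes, with quartiles at -0.085 and 0.034 for the members and -0.13 and 0.12 for all genes. Values were negative for 61 members and positive for 32, which makes 65.6% negative against 50.5% of all tested genes. Of the 76 coding members, 74 had a 95% interval wholly inside a 1.5-fold change in either direction, a share of 97.4% against 77.3% of all tested coding genes. Among coding genes of at least 10 CPM the shares were 100% (71 of 71 members) and 89.6%, with median biological coefficients of variation of 10.4% and 11.3%. The coding exceptions were the low genes fd102C and fuss, and both of their intervals stayed within 2-fold. Of the 17 tested non-coding members, 4 had an interval inside 1.5-fold, and for the rest a change of that size lay within the interval; their median biological coefficient of variation was 21.6%, against 10.5% for the coding members. Over all tested genes, 71.5% had an interval inside 1.5-fold, and over the 93 members 78 did. The members varied less between replicates than other genes, with a median biological coefficient of variation of 10.9% against 12.6%, and coding members had a higher level, at a median of 89.3 CPM against 26.9 for all coding genes.

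**Figure D3:**
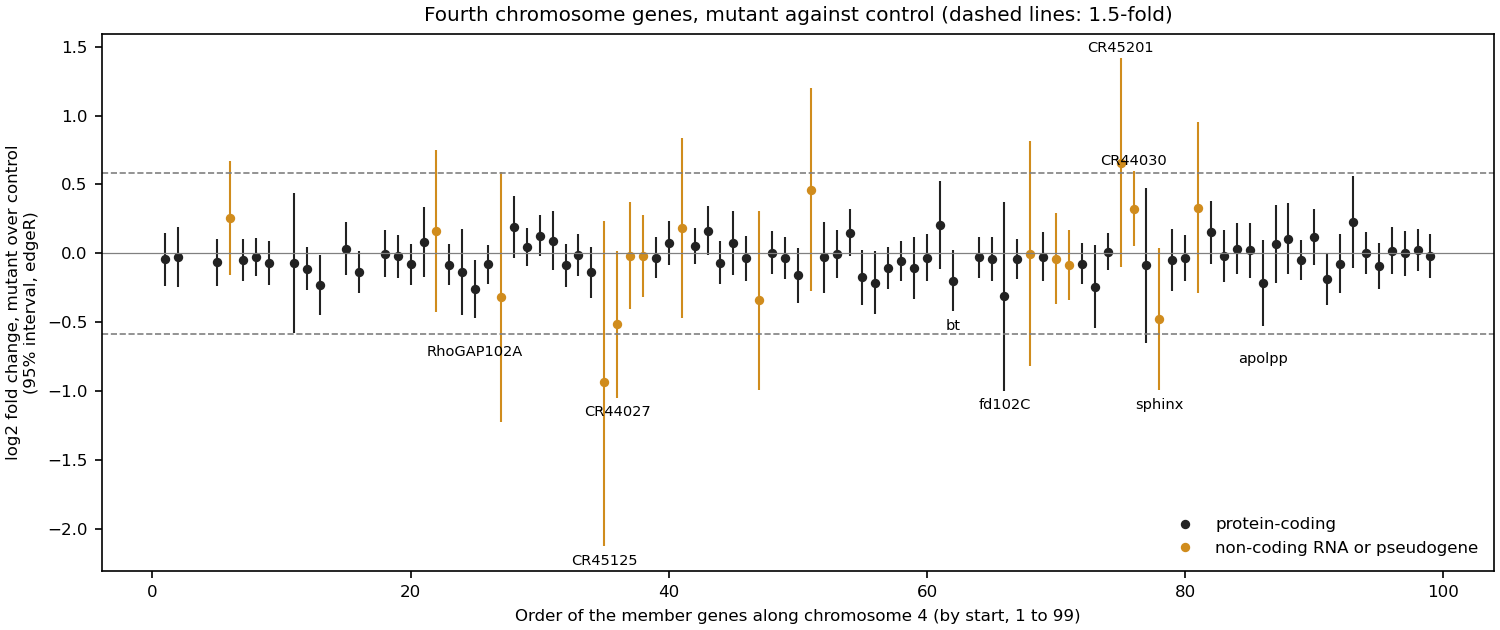
Log2 fold change of mutant over control with its 95% interval (edgeR) for the 93 tested members, in their order along chromosome 4, with coding genes in black, non-coding genes and the pseudogene in orange, and dashed lines at 1.5-fold. Coding members lie between -0.31 and 0.23. Most intervals that reach past 1.5-fold belong to non-coding genes of low level, and the others to the coding genes fd102C and fuss.

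The member with the smallest adjusted p was RhoGAP102A (FBgn0259216, 254997 to 265574 on the plus strand), a predicted activator of GTP hydrolysis by small GTPases. It had 39.6, 48.3, 43.9, 38.6 and 36.3 CPM in the control libraries and 31.2, 36.6, 37.4 and 33.1 CPM in the mutant libraries. The groups overlapped, since the highest mutant libraries exceeded the lowest control library. The log2 fold change was -0.26 with a standard error of 0.097, a 95% interval from -0.47 to -0.046 and an edgeR adjusted p of 0.232. CR44030 (FBgn0264822, 959675 to 962692 on the plus strand), a non-coding gene that overlaps fuss on the opposite strand, was the only member without overlap of the groups. It had 7.08, 6.26, 7.68, 6.50 and 5.37 CPM in controls and 9.10, 8.15, 7.72 and 7.96 CPM in mutants, and the lowest mutant library stood only just above the highest control library. Its log2 fold change was 0.32 with a standard error of 0.13 and an edgeR adjusted p of 0.246. The third member at an unadjusted p under 0.05 was CG33978, an uncharacterised gene, with 47.5 ± 2.97 CPM in controls (SD, n = 5) and 40.6 ± 6.11 in mutants (SD, n = 4) and an edgeR adjusted p of 0.316.

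The sample sheet numbers the replicates, and libraries with the same number deviated together. Control replicates 1, 2, 4 and 5 share their sheet numbers with mutant replicates 1, 2, 3 and 4, in that order. The comparison was therefore also made within these pairs of same-numbered libraries (4 of each genotype). In that edgeR fit 1 of 93 members was called, where 3.79% of all tested genes were called, and 15 members had an unadjusted p under 0.05, where 17.8% of all genes had. Of these 15, 11 had negative and 4 positive values. The member called was apolpp, and bt had the next smallest adjusted p. Counts given below for groups of genes come from the fit over all 9 libraries unless the pairs are named.

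The gene apolpp (FBgn0087002, 1060969 to 1077273 on the plus strand) encodes apolipophorin, the structural protein of lipophorin, which carries lipid from the gut and the fat body through the hemolymph. Its level was 5681, 5855, 4144, 4169 and 4928 CPM in the control libraries and 4781, 4997, 3288 and 4025 CPM in the mutant libraries. The groups overlapped widely, with control replicates 3 and 4 below mutant replicates 1 and 2. Over all 9 libraries the log2 fold change was -0.21 with a standard error of 0.14, a 95% interval from -0.52 to 0.097 and an edgeR adjusted p of 0.516. Within the pairs every mutant library was below its control partner, by log2 ratios of -0.25, -0.23, -0.34 and -0.29. The edgeR fit with the pair as a block gave -0.28 with an adjusted p of 0.0309. That fit left out control replicate 3, which has no partner and was the lowest control, at 4144 CPM. The paired and unpaired fits therefore differ in their libraries as well as in the pairing. Without mutant replicate 3 the unpaired value was -0.11. The other 9 matched fat body markers summed to between 4085 and 6611 CPM in controls and between 4774 and 5319 CPM in mutants, with means of 5073 ± 1035 and 5089 ± 240 (SD, n = 5 and 4). The gene overlaps Zyx, on the opposite strand, and whether counting used the strand is not stated.

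The gene bt (bent, FBgn0005666, 724400 to 776474 on the plus strand) encodes projectin, a titin-like protein that links myosin filaments to the ends of the sarcomere in flight muscle. It had 1712, 1406, 1458, 1485 and 1769 CPM in controls and 1426, 1247, 1218 and 1572 CPM in mutants. The groups overlapped, with mutant replicate 4 above 3 of the 5 control libraries. The log2 fold change was -0.20 with a standard error of 0.10 and an edgeR adjusted p of 0.394, and in the fit by pairs it was -0.22 with an adjusted p of 0.0595. The 10 muscle markers summed to between 7957 and 8619 CPM in controls and between 7852 and 8223 CPM in mutants. Of the other members of the list for muscle and cytoskeleton, the membrane-to-spectrin linker Ank had 360 ± 14.1 and 353 ± 9.14 CPM, the focal adhesion protein Zyx 101 ± 8.01 and 102 ± 11.6, and the kinesin Kif3C 7.85 ± 1.11 and 9.21 ± 1.72 (SD, n = 5 and 4).

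Among 15 transcription factors, 0 were called by edgeR with adjustment over all tested genes, where 1.63% of those genes were called. At an unadjusted p under 0.05 in edgeR there were 0, against 15.1% of all tested genes. The median log2 fold change of the 15 was -0.040. The Pax6 factors ey (eyeless) and toy (twin of eyeless), which specify the eye, are both on this chromosome. In the control libraries ey had 9.07, 9.23, 7.91, 9.45 and 6.97 CPM and in the mutant libraries 9.27, 8.15, 12.7 and 9.24 CPM, with a log2 fold change of 0.21 (standard error 0.15). Only mutant replicate 3 exceeded all control libraries, and without it the value was 0.059. For toy the means were 19.2 ± 2.04 and 18.5 ± 1.79 CPM (SD, n = 5 and 4). The effector of Hedgehog signalling, ci (cubitus interruptus), had 58.0 ± 3.17 CPM in controls and 55.4 ± 4.87 in mutants, and the TCF factor of Wnt signalling, pan (pangolin), had 150 ± 10.1 and 145 ± 7.49. For pho, the Polycomb group protein that binds DNA, and Mitf, a factor for lysosomal genes, the log2 fold changes were 0.0043 and 0.0022. The largest negative value of the list belonged to fd102C, with 1.69 ± 0.518 and 1.36 ± 0.425 CPM and a log2 fold change of -0.31 (standard error 0.31), which lay between -0.53 and -0.17 with 1 library left out. The zinc finger factor dati had a value of -0.14 (standard error 0.085) and NfI, of the nuclear factor I family, -0.080 (standard error 0.066). Per kilobase of exon the factors ranged in control flies from 0.725 CPM for fd102C to 32.8 CPM for pho.

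Cofactors of transcription and regulators of RNA had small log2 values. In edgeR 0 of the 8 genes listed as transcription and chromatin cofactors were called (1.63% of all tested genes were). At an unadjusted p under 0.05 in edgeR there were 0 of them (15.1% of all tested genes). Their log2 fold changes lay between -0.070 and 0.047. The lowest, CG32000, is related to ATP-driven ion transporters and entered the list under a synonym, so its place there is doubtful. Rad23, which acts in nucleotide excision repair and in delivery of proteins to the proteasome, had 115.6, 129.7, 129.1, 126.1 and 126.8 CPM in controls and 123.4, 129.7, 132.5 and 132.9 CPM in mutants. Asator, a kinase of the tau tubulin kinase family, had 128 ± 8.37 and 122.5 ± 7.99 CPM (SD, n = 5 and 4). The partner of armadillo in Wnt signalling, lgs (legless), had 179 ± 7.73 and 175 ± 10.8 CPM, and the Mediator subunit MED26 151 ± 5.51 and 149 ± 10.8 CPM (SD, n = 5 and 4). Of the 6 genes listed under translation and RNA regulation, edgeR called 0 (1.63% of all tested genes). None had an unadjusted p under 0.05 in edgeR (15.1% of all tested genes had). Their values lay between -0.11 and 0.012. The lowest was gw (gawky), the GW182 protein of microRNA silencing, with 361 ± 20.1 CPM in controls and 335 ± 16.4 in mutants, an edgeR adjusted p of 0.508 and overlapping groups. Slip1, whose place in this list is also doubtful, had 90.01 ± 4.58 and 86.5 ± 4.64 CPM (SD, n = 5 and 4). The translation initiation scaffold eIF4G1 had 528 ± 23.7 and 501 ± 25.3 CPM and the transporter of the cap-binding protein, 4E-T, 114.6 ± 3.69 and 115.6 ± 6.15 CPM.

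Ligands and receptors of several signalling families lie on the chromosome. The 3 ligands of the TGF-beta family were at 61.9 ± 4.74 and 68.6 ± 4.89 CPM for mav (maverick), at 20.3 ± 1.38 and 21.3 ± 4.32 CPM for Actbeta (Activin-beta) and at 132 ± 7.67 and 129 ± 12.5 CPM for myo (myoglianin), in controls and mutants (SD, n = 5 and 4). Ephrin, the ligand of the guidance receptor Eph, had a log2 fold change of -0.033 (standard error 0.070) and Eph itself -0.0045 (standard error 0.081). The log2 fold changes of all 6 receptors were negative, from -0.24 to -0.0045. By edgeR 0 were called (1.63% of all tested genes were) and 0 had an unadjusted p under 0.05 (15.1% had). The metabotropic glutamate receptor mGluR had 17.5, 18.7, 20.8, 22.5 and 23.2 CPM in controls and 12.7, 16.95, 20.6 and 19.3 CPM in mutants, with a log2 fold change of -0.24 and an edgeR adjusted p of 0.455. The groups overlapped, and mutant replicates 1 and 2 lay below all controls. Without mutant replicate 1 the value was -0.12. The ionotropic glutamate receptors Ekar and CG11155, of the kainate type, had values of -0.21 (standard error 0.10) and -0.19 (standard error 0.086). Within pairs, 3 of the 6 receptors had an unadjusted p under 0.05 in edgeR, where 17.8% of all tested genes had, and 0 were called. Their values were -0.25 for mGluR, -0.21 for Ekar and -0.16 for CG11155, at edgeR adjusted p of 0.194, 0.247 and 0.134. For all 3 of these receptors every mutant library was below its control partner. They were picked by their p in this same fit, so the direction of their pairs adds no separate support. The semaphorin receptors PlexA and PlexB had values of -0.035 and -0.027.

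Of 11 genes of synapses and neuronal signalling, 9 had negative and 2 positive values. By edgeR 0 of the 11 were called (1.63% of all tested genes were) and 0 had an unadjusted p under 0.05 (15.1% had). Within pairs 4 of them had an unadjusted p under 0.05 in edgeR, where 17.8% of all tested genes had, and 0 were called. These were Gat, Syt7, mGluR and Ekar, and mGluR and Ekar are also counted among the receptors above. Syt7, a calcium sensor for vesicle release, had 38.8, 47.5, 43.8, 56.8 and 49.4 CPM in controls and 49.4, 56.6, 55.3 and 54.7 CPM in mutants. Its log2 fold change was 0.19 (standard error 0.10), and the groups overlapped because of control replicates 4 and 5. The GABA transporter of glia, Gat, had 66.9 ± 6.67 and 59.3 ± 5.17 CPM and a value of -0.17 (standard error 0.092). The vesicle priming factor unc-13 had 316 ± 23.8 and 311 ± 24.6 CPM, the cadherin family member Cals (calsyntenin) 390 ± 19.8 and 378 ± 12.8, and the plasma membrane calcium pump PMCA 705 ± 28.4 and 664 ± 46.3 (SD, n = 5 and 4). Neuron markers summed to between 975 and 1172 CPM in controls and between 947 and 1073 CPM in mutants, and glia markers to between 1265 and 1399 and between 1233 and 1350 CPM.

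Of the 9 kinases and regulators of small GTPases, 6 had positive and 3 negative values, and edgeR called 0 (1.63% of all tested genes). At an unadjusted p under 0.05 in edgeR there was 1 (RhoGAP102A, above), against 15.1% of all tested genes. Within pairs 2 of the 9 had an unadjusted p under 0.05 in edgeR, where 17.8% of all tested genes had, and 0 were called. CaMKI had 446 ± 25.9 CPM in controls and 470 ± 31.3 in mutants, CaMKII 194 ± 17.2 and 199 ± 16.4, and Arf102F 106 ± 12.3 and 115.1 ± 8.08 (SD, n = 5 and 4). The 6 genes of metabolism and transport, apolpp among them, had 4 negative and 2 positive values. The edgeR fit over 9 libraries called 0 of the 6 (1.63% of all tested genes). In it 0 of the 6 had an unadjusted p under 0.05 (15.1% of all tested genes had). Within pairs 1 of them was called, apolpp, where 3.79% of all tested genes were called. In that fit 2 of them had an unadjusted p under 0.05 in edgeR, where 17.8% of all tested genes had. The zinc transporter Zip102B had 75.02 ± 4.89 and 82.1 ± 3.74 CPM and JYalpha, a sodium pump subunit needed for sperm motility, 43.7 ± 4.63 and 42.5 ± 2.29. The 14 coding members with no role listed lay between -0.23 and 0.17, with CG33978 the lowest and 0 called (1.63% of all tested genes). Among them CG1674 was the highest by CPM, at 331 ± 14.6 and 313 ± 14.7.

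The non-coding genes had the largest log2 values and the lowest levels. Of 23 members, pseudogene included, 6 did not pass the filter on low counts, with between 0 and 21 counts per library. Of the 17 tested, edgeR called 0 (1.63% of all tested genes) and 1 had an unadjusted p under 0.05 (15.1% of all). Values were negative for 10 and positive for 7. They ran from -0.93 for CR45125 to 0.65 for CR45201, both under 1.1 CPM in each group on average. Of the 23, 14 overlap a gene on the opposite strand, so reads of both genes cannot be told apart if counting ignored the strand. The RNA gene sphinx (975168 to 977261, plus strand), a young gene known from work on male courtship, had 3.71, 2.20, 3.61, 4.11 and 2.34 CPM in controls and 2.90, 1.96, 2.25 and 2.07 CPM in mutants. Its groups overlapped, its log2 fold change was -0.48 (standard error 0.24) and its edgeR adjusted p was 0.372. CR44027, which overlaps dati, had 4.09, 2.69, 6.30, 5.48 and 3.43 CPM in controls and 3.01, 2.91, 2.71 and 3.71 CPM in mutants, with a value of -0.51 (standard error 0.24). CR43957, opposite ci, had a value of 0.26 (standard error 0.19), CR44031, opposite CG11077, 0.33 (standard error 0.28), and CR43958, inside Thd1 on the same strand, -0.34 (standard error 0.30). With 1 library left out, CR44031 ranged from 0.15 (without control replicate 2) to 0.49 (without control replicate 5) and CR43958 from -0.48 (without mutant replicate 2) to -0.18 (without control replicate 1).

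Proteins known to act on chromosome 4, on other heterochromatin or in chromosome-wide dosage compensation are encoded elsewhere in the genome, and 32 such genes were examined. By edgeR 0 of the 32 were called (1.63% of all tested genes were) and 3 had an unadjusted p under 0.05 (15.1% of all tested genes had). All 32 had a 95% interval inside 1.5-fold, against 71.5% of all tested genes. All 32 are protein-coding. The share was 77.3% of all tested coding genes and 89.6% of those with at least 10 CPM. By DESeq2 and in the fit by pairs 0 were called as well. Pof had 330, 297, 415, 314 and 311 CPM in controls and 295, 313, 290 and 282 CPM in mutants, with a log2 fold change of -0.18 (standard error 0.097) and an edgeR adjusted p of 0.430. One library, control replicate 3, stood above the others, and the groups overlapped. The gene of HP1a, a suppressor of variegation, had 53.1 ± 4.03 CPM in controls and 53.3 ± 4.15 in mutants, and egg 20.2 ± 2.35 and 21.4 ± 1.11 (SD, n = 5 and 4). The smallest p-values of the list were those of the RNA and DNA topoisomerase Top3beta, with a value of 0.25, of bin3 with 0.16 and of the promoter binding factor Dref with 0.18, at edgeR adjusted p of 0.292, 0.303 and 0.307.

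Many members deviated the same way between libraries of one genotype. Among the 74 members of at least 10 CPM on average, 59 were below their group's mean in control replicate 1 and 67 were below it in mutant replicate 1, with median log2 deviations of -0.077 and -0.090. Both libraries carry the number 1 in the sample sheet. In control replicate 4, 16 of the 74 were below their group's mean and in mutant replicate 4 21 were, with medians of 0.058 and 0.071. The medians of the other 5 libraries lay between -0.014 and 0.021. Control replicate 4 and mutant replicate 4 are not partners, since the sheet numbers them 3 and 4. Their partners, mutant replicate 3 and control replicate 5, had medians of 0.016 and 0.021. The 1851 coding genes elsewhere with at least 4000 bases of exon had medians of 0.043 in control replicate 1 and 0.0025 in mutant replicate 1. In control replicate 4 and mutant replicate 4 they had 0.039 and 0.060. In the same order the 41 coding members of that length had -0.052, -0.069, 0.068 and 0.105. The 30 other coding members had -0.097, -0.106, 0.044 and 0.045, and the 6875 other coding genes elsewhere -0.013, 0.0078, -0.019 and -0.018. In control replicate 1, 33.3% of the long and 55.0% of the other coding genes elsewhere were below their group's mean. The shares in mutant replicate 1 were 49% and 47.3%. The 3 genes of chromosome 4 that were set aside by symbol were also below their group's mean in control replicate 1 and in mutant replicate 1. This pattern was noticed in the data and no test of it was made; its cause was not tested. The median log2 fold change of the tested members was -0.046 without control replicate 1 and -0.0046 without mutant replicate 1.

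**Figure D4:**
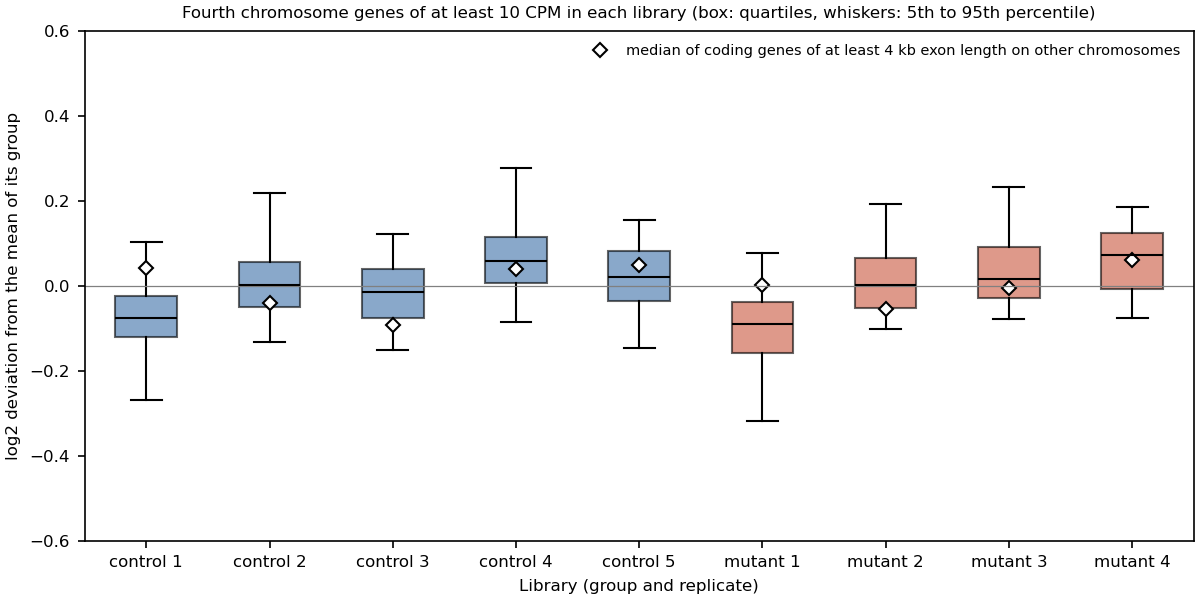
Log2 deviation of each of the 74 members with a mean of at least 10 CPM from the mean of its own group, by library, with the box at the quartiles and the whiskers at the 5th and 95th percentiles. Open diamonds give the median of 1851 coding genes elsewhere with at least 4000 bases of exon in total. The boxes of control replicate 1 (median -0.077) and mutant replicate 1 (median -0.090) lie below 0.

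In the authors' deposited table, 0 of the 99 members had an adjusted p under 0.05, where 3.47% of all genes with an adjusted p had one. There, in the authors' deposited table, the members with an unadjusted p under 0.05 numbered 4, and the smallest adjusted p of a member was 0.151. Of the 93 members tested here, 92 had the same sign in the authors' deposited table, and for the 74 members of at least 10 CPM the log2 values differed by at most 0.013.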

How the data were processed

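Members and gene lists were chosen with earlier results of these data known. Per the labels, stranded poly(A) libraries of whole flies were sequenced; the submitters' processing notes list featureCounts (1.6.3), STAR (2.6.1b), DESeq2 (1.20.0, 1.22.2) and cutadapt without roles, and strand and multi-mapping settings were not given. The authors deposited raw counts per gene, used as deposited, and a comparison table with a mean normalised signal per gene, log2 fold changes with standard errors, and p-values, raw and adjusted, per the file headers. That table was only set beside the new fit.

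The quasi-likelihood functions glmQLFit and glmQLFTest of edgeR 4.0.16 (R 4.3.3) were run on genotype alone, after TMM scaling and a filterByExpr minimum of 10 counts, p-values were adjusted by Benjamini-Hochberg over 13274 genes with a threshold of 0.05, and 217 genes were called, 94 higher and 123 lower. CPM values use TMM-scaled library sizes, summed over the tested genes. Intervals are the coefficient with its standard error at 95%, each on its own. Totals per library bound the precision, and reads without molecular identifiers are not independent molecules. Exon lengths came from the Ensembl annotation of the same assembly, which held 99.3% of the tested genes by identifier. The sample sheet numbers replicates, which the titles do not: same-numbered control and mutant libraries had deviations from the group means that correlated at 0.207, 0.214, 0.210 and 0.277 across genes, against at most 0.0402 for other numbers, so the numbers were taken to pair them, with control replicate 3 unpaired.

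Members named in full are, by rule, those called, the 6 highest and 6 lowest log2 fold changes at a mean of at least 1 CPM, the 10 highest by CPM, and the 3 smallest p of each role list; others named were picked after their values were seen. One gene that the rule named is not reported here. Role lists were written by hand and hold 63 members, 5 of them placed after the members were listed. The alternatives comprised DESeq2 1.42.0, factors by RLE and by upper quartile, other filters, each library left out, the pairing, grouping by the genotype tag, and only the 5 libraries whose labels agree. The scripts were tested on simulated data.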

Additional observations from a re-analysis of the deposited data

Results flagged for a closer look

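In 8 of the 84 groups examined (each named member reported and each named regulator in each genotype), 1 library stood farther from the rest than Dixon's critical value allows, and chance gives about 5% of groups. Control replicate 1 was low for Rad23, at 115.6 CPM with the nearest library at 126.1. Mutant replicate 1 was low for Kif3C, at 6.655 CPM with the nearest at 9.791, and for CG1674, at 291.2 CPM with the nearest at 319.5. Mutant replicate 4 was high for PMCA, at 732.8 CPM with the nearest at 648, and for eIF4G1, at 538.8 CPM with the nearest at 493.5, and low for CR43957, at 2.675 CPM with the nearest at 4.519. Control replicate 5 was high for PMCA, at 753.9 CPM with the nearest at 703.9. Control replicate 3 was high for Pof, at 414.8 CPM with the nearest at 330.2.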

How the results depend on the processing

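Over all tested genes, the count of 217 called genes became 496 with DESeq2, 500 with the replicate block, 21 with the 5 libraries whose labels agree and 0 by edgeR with grouping by the genotype tag (171 at an unadjusted p under 0.05), and ran from 127 (without mutant replicate 4) to 291 (without control replicate 2) with 1 library left out; it was 137 without mutant replicate 3. Members called stayed at 0 in each alternative, adjusted p under 0.01 and the 3 genes set aside included, except for 1 with the replicate block (apolpp). Members at an unadjusted p under 0.05 numbered between 1 (grouping by tag) and 15 (replicate block), and 8 without control replicate 2 or without mutant replicate 3. The median log2 fold change of members was negative in each alternative, from -0.053 to -0.0042. The ratio of levels per length was 1.162 by gene span in place of 1.72. Of 629 values of the 37 named members under 17 alternatives, 1 newly passed the threshold and 23, in 17 members, had the other sign, none of them called. The causes were not tested. The pairing changed no other call among named members. Leaving out 1 library moved the value of 24 of the 37 by over 1.5 times or turned its sign. The tested non-coding members rest on a median of 2.31 CPM in controls.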
